A study of Mus musculus with 20 samples.

Results

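Plasmacytoid dendritic cells (pDCs) were followed here through 10 genes in leukocytes sorted from MC38-OVA tumours, a mouse colon carcinoma line that carries ovalbumin. The genes were Siglech, Ccr9, Ptprf, Ly6d, Tcf4, Spib, Dntt, Klk1, Cox6a2 and D13Ertd608e, which are 10 of the 55260 genes summed from the transcript table. They were picked because they stood out in the CD11c+CD11b- fraction, so their differences between populations are described without a test. All host mice were C57BL/6 and bore tumours. The 5 treatments were untreated (called sham irradiation in the design text), radiotherapy of 8 Gy on day 12 (RT), RT plus anti-SIRPa in 400 µg doses, RT plus anti-PD-1 in 250 µg doses, and RT plus the pair of antibodies. Myeloid cells carry SIRPa, which holds back their uptake of other cells, and activated T cells carry PD-1, which dampens them. On day 17, leukocytes from 10 tumours were pooled for each treatment and sorted into CD11c+CD11b-, CD11c+CD11b+ and CD11c-CD11b+ myeloid fractions and CD8 T cells. Each of the 20 groups was 1 library, so no treatment of a population had a second library.

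The pDC is a dendritic cell that senses nucleic acids in endosomes and can secrete large amounts of type I interferon. Its identity is set by the E protein Tcf4 together with Spib, and in the mouse it carries Siglech, Bst2 and, in many tissues, Ccr9 on its surface. It shares a number of transcripts, Dntt among them, with early lymphoid cells. Mouse pDCs carry little CD11b and a low level of CD11c, so a sort on these integrins places them among CD11c+CD11b- cells, beside conventional type 1 dendritic cells (cDC1) and NK cells.

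Library totals ran from 21.5 to 35.7 M (mega) estimated counts. The sort was visible in its own genes: Itgam, which encodes CD11b, stood at 59.5 to 117 CPM (counts per M of the library, normalised by TMM) in the CD11c+CD11b- libraries and at 1277 to 1631 CPM in the CD11c+CD11b+ libraries. The library labelled untreated CD8 T went against its label, with Cd8a at 48.6 CPM where the other CD8 T libraries held 750 to 1186 CPM. It held Itgam at 1740 CPM and the 4 macrophage markers at a summed 5156 CPM, against 333 to 758 CPM in the other CD8 T libraries. Of the 7 genes set as defining pDCs, all were detected in every CD11c+CD11b- library, but also in every library of the other myeloid fractions. They summed to 412 to 1073 CPM in CD11c+CD11b- cells, which overlapped with 406 to 484 CPM in CD11c+CD11b+ cells and 346 to 425 CPM in CD11c-CD11b+ cells, so the sum does not set the fraction apart. The same libraries held Ncr1, Klrb1c and Eomes of NK cells at a summed 633 to 849 CPM, so pDC transcripts were measured in a mixed population.

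Promoter sequences show what the members have in common in front of their start sites. E proteins such as Tcf4 bind E-boxes, and ETS factors such as Spib bind purine-rich motifs. RefSeq promoters on GRCm38.p6 were found for 6 members (Siglech, Ccr9, Dntt, Klk1, Spib and Ptprf). The window searched ran from 250 to 51 bases before the annotated start, 200 bases in all, and held no annotated exon. The E-box CANNTG, which reads alike on both strands, was present in 6 of the 6 windows and in 59% of the 32851 promoter windows of the same table. Its form CAGGTG, searched on both strands, was in 2 of the 6, Ccr9 and Klk1, against 14.4% of all windows. The ETS-type motif GAGGAA, searched on both strands, was in 0 of the 6 windows and in 18.8% of all windows, which says only that these letters are not in this window. A match is a description of the letters and not a binding site. Of these 6, the 4 genes with the widest range between treatments in the values that follow are printed 5′ to 3′ on the sense strand, with every CANNTG in capitals. They cover chr7:55767934-55768133 (plus strand, Siglech), chr9:123766961-123767160 (plus strand, Ccr9), chr19:41029025-41029224 (plus strand, Dntt) and chr7:44225110-44225309 (plus strand, Klk1).
Siglech: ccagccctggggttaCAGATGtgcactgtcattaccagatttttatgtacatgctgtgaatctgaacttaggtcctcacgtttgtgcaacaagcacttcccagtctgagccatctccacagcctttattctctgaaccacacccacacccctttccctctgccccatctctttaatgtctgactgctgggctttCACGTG
Ccr9: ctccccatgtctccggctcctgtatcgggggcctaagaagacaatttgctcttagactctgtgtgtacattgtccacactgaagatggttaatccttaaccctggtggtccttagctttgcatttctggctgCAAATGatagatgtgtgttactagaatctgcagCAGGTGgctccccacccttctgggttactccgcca
Dntt: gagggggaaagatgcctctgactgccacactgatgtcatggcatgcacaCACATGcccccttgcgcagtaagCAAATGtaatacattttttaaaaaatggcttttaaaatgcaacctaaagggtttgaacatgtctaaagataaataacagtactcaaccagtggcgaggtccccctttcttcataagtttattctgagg
Klk1: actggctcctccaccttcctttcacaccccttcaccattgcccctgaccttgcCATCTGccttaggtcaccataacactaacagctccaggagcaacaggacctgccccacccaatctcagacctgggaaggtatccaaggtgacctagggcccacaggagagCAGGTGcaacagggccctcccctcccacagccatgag
Each of these 4 windows held 2 E-boxes.

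The members that encode surface proteins are given first. Siglech, a member of the sialic acid-binding lectin family that marks mouse pDCs (chromosome 7, 55768178 to 55778925, GRCm38), stood at 11.7 CPM in the untreated CD11c+CD11b- library. It stood at 172 CPM after RT, 47.0 CPM after RT with anti-SIRPa, 238 CPM after RT with anti-PD-1 and 124 CPM after RT with both antibodies. Every one of these 5 values lay above every library of the other populations, where the highest values were 1.81 CPM in CD11c+CD11b+ cells, 0.921 CPM in CD11c-CD11b+ cells and 6.74 CPM in CD8 T cells. Of all Siglech CPM in the 20 libraries, 95.8% was in the CD11c+CD11b- fraction.

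Ccr9, the receptor for the gut and thymus chemokine Ccl25 (chromosome 9, 123678439 to 123784330), ran in parallel with Siglech. Its CD11c+CD11b- values were 10.5 CPM untreated, 164 CPM after RT, 48.2 CPM after RT with anti-SIRPa, 243 CPM after RT with anti-PD-1 and 128 CPM after both antibodies. Ccr9 was less restricted than Siglech, with 86.1% of its CPM in this fraction, and its untreated value lay below the 14.0 CPM of the RT CD8 T library. In CD11c+CD11b+ cells it ranged from 2.71 to 7.67 CPM and in CD11c-CD11b+ cells it reached 8.57 CPM, with 76 counts or more in every library. The transcripts behind the gene also differed. In CD11c+CD11b- cells 8.27% of the Ccr9 counts were placed on a transcript annotated as a retained intron, against 42.4% in CD11c+CD11b+ cells and 52.7% in CD11c-CD11b+ cells. In the RT CD8 T library 65.1% of the Ccr9 counts lay on a transcript with a far upstream start, which took 0.265% of them in CD11c+CD11b- cells. It took 0 to 2.62% in the other CD8 T libraries. In the CD8 T library of RT with anti-SIRPa a different transcript took 79.7%. The placement was thus unstable between CD8 T libraries and does not describe that population. It also moved between CD11c+CD11b- libraries, where the retained intron took 5.73 to 18.1% and a coding transcript 7.05 to 56.5%. The shares given for the myeloid fractions are of counts summed over their libraries. Ccr9 overlaps Lztfl1 and a pseudogene on the opposite strand, which held 2528 and 9037 counts in the CD11c+CD11b- libraries. Whether the counting used strand is not given in the sources used here, so reads of these genes cannot be told apart with certainty.

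Ptprf, a receptor protein tyrosine phosphatase (chromosome 4, 118208213 to 118291405), stood at 2.59 CPM untreated, 32.5 CPM after RT, 9.45 CPM after RT with anti-SIRPa, 46.3 CPM after RT with anti-PD-1 and 23.9 CPM after both antibodies. Ly6d, a GPI-anchored protein of lymphoid progenitors and pDCs (chromosome 15, 74762056 to 74763620), had 2.0, 27.2, 9.49, 36.1 and 22.5 CPM in the same order. For both genes the lowest CD11c+CD11b- value was the untreated one, and it still lay above all libraries of the other 3 populations, which reached 1.41 CPM for Ptprf and 1.01 CPM for Ly6d. Shares of the CPM in this fraction were 94.1% for Ptprf and 95.8% for Ly6d.

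**Figure D1:**
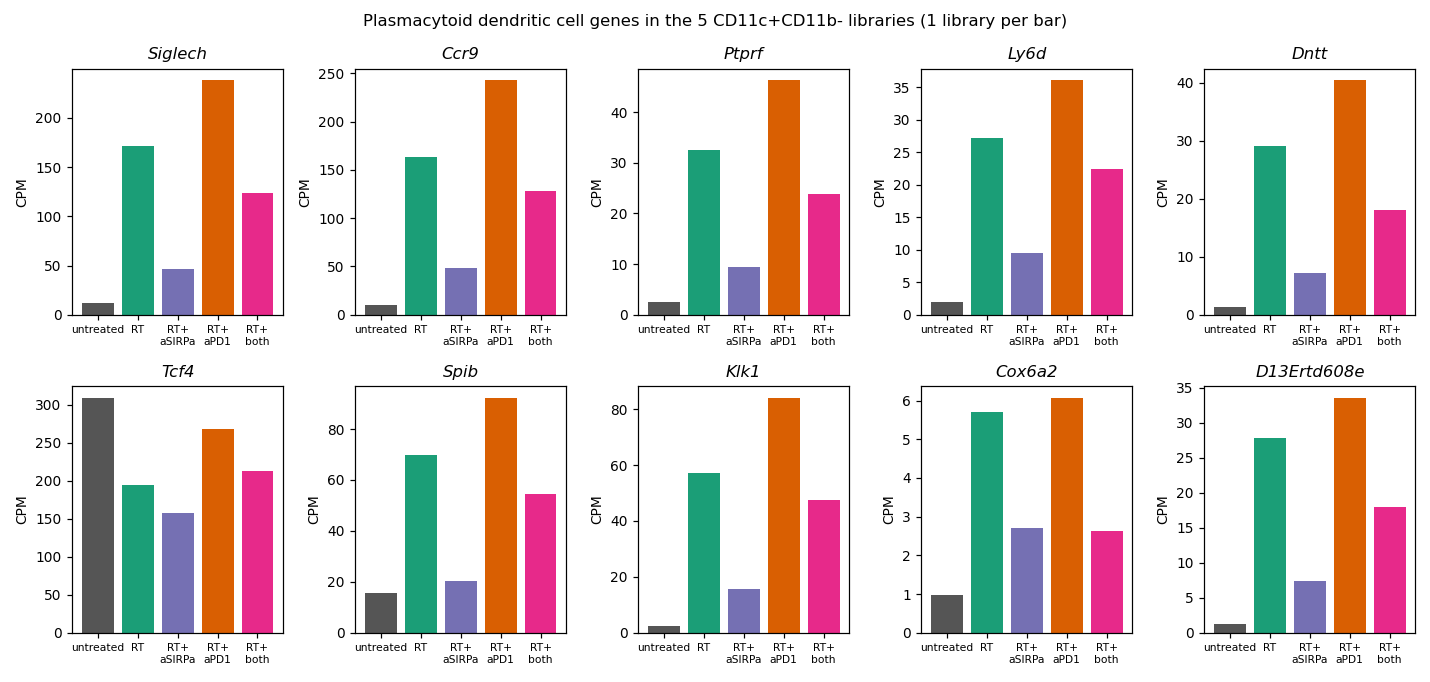
CPM of the 10 genes (vertical axes start at 0 and differ between panels) in the 5 CD11c+CD11b- libraries, 1 library per bar and no error bars because no group had a second library. In 9 panels RT with anti-PD-1 is the highest bar and untreated the lowest; in the panel of Tcf4 the untreated bar is the highest, at 308 CPM.

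The 2 transcription factors behaved differently from each other. Tcf4, the E protein required for pDC development and upkeep (chromosome 18), stood at 308 CPM in the untreated CD11c+CD11b- library and at 194 CPM after RT, 157 CPM with anti-SIRPa added, 268 CPM with anti-PD-1 added and 213 CPM with both added. It was not confined to the CD11c+CD11b- fraction, which held 31.9% of its CPM. Its values were 178 to 246 CPM in CD11c+CD11b+ cells, 158 to 280 CPM in CD11c-CD11b+ cells and 40.0 to 87.8 CPM in the irradiated CD8 T libraries. The library labelled untreated CD8 T, which went against its label, held 227 CPM. In each of the 3 myeloid fractions the untreated library held the most Tcf4. The summed collagen and decorin markers of fibroblasts, all 4 detected in each CD11c+CD11b- library, were also highest in the untreated library of each of these fractions. In the CD11c+CD11b- cells that sum was 6242 CPM untreated and 413 to 1494 CPM in the irradiated libraries. The part of these markers in the Tcf4 values was not tested. Of the counts on coding Tcf4 transcripts that reach the last exons, those starting in the first 30% of the gene's span took 92.6 to 96.9% in the CD11c+CD11b- libraries, and the lowest share in the 20 libraries was 73.1%, in the CD8 T library of both antibodies.

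Spib, an ETS factor of pDCs and B cells (chromosome 7, 44525993 to 44532071), stood at 15.6 CPM untreated, 69.7 CPM after RT, 20.3 CPM after RT with anti-SIRPa, 92.1 CPM after RT with anti-PD-1 and 54.6 CPM after both antibodies. All 5 values lay above every library of the other populations, whose highest was 7.62 CPM, in untreated CD11c+CD11b+ cells. The order of the libraries was that of Siglech, but the untreated and the RT with anti-SIRPa library lay close together, at a ratio of 1.31 where Siglech had 4.01. The 5 markers set for B cells summed to 2.68 to 11.4 CPM, most of it Ebf1, while the immunoglobulin genes Ighm and Igkc, given with the early lymphoid genes, were not among them.

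Dntt, terminal deoxynucleotidyl transferase, adds bases to rearranging antigen receptor genes (chromosome 19, 41029275 to 41059525). It stood at 1.38 CPM untreated, 29.1 CPM after RT, 7.24 CPM after RT with anti-SIRPa, 40.5 CPM after RT with anti-PD-1 and 18.2 CPM after both antibodies. Only 42 counts lay behind the untreated value. Dntt had no counts in 3 of the CD11c+CD11b+ and 3 of the CD11c-CD11b+ libraries. In CD8 T cells it reached 1.89 CPM, in the RT library, which is above the untreated CD11c+CD11b- value. Rag1 and Rag2, which act with Dntt in lymphoid precursors, are given with the early lymphoid genes.

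Klk1, a tissue kallikrein protease (chromosome 7, 44225360 to 44229618), stood at 2.52 CPM untreated, 57.3 CPM after RT, 15.7 CPM after RT with anti-SIRPa, 83.9 CPM after RT with anti-PD-1 and 47.5 CPM after both antibodies. It had 0 counts in all 5 CD11c-CD11b+ libraries, so the mean of the CD11c+CD11b- libraries was at least 1859-fold higher than a floor of 3 counts over that group. Klk1 belongs to a family of near-identical kallikreins, among which reads can be split, and its level is uncertain to that extent. D13Ertd608e, a protein-coding gene without a settled function (chromosome 13, 119836006 to 119846570), had 1.28, 27.9, 7.35, 33.5 and 18.0 CPM in the same order of libraries. Outside the CD11c+CD11b- fraction it reached at most 1.81 CPM, in the RT CD8 T library.

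Cox6a2, the heart and muscle form of a cytochrome c oxidase subunit (chromosome 7, 128205435 to 128206387), had few counts. It stood at 0.983 CPM untreated, 5.71 CPM after RT, 2.70 CPM after RT with anti-SIRPa, 6.06 CPM after RT with anti-PD-1 and 2.64 CPM after both antibodies, on 30 to 154 counts. Its untreated value was overlapped by CD11c-CD11b+ libraries, which reached 1.55 CPM, and 64.9% of its CPM was in the CD11c+CD11b- fraction. Cox6a2 overlaps Itgad on the opposite strand, which held 951 counts in these 5 libraries. Muscle markers were scarce there, with Ckm, Acta1, Myh4 and Tnnt3 at a summed 2.13 to 6.36 CPM and Myh4 at 0 counts.

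Across populations, the 5 CD11c+CD11b- libraries lay above all 5 CD11c+CD11b+ libraries for 8 of the 10 genes, all but Tcf4 and Cox6a2, where 16% of the 18727 genes tested did. The same 8 genes lay above all 5 CD11c-CD11b+ libraries, against 16.5% of genes. For CD8 T cells the count was 5 of 10 (Siglech, Ly6d, Spib, Cox6a2 and Ptprf), against 4.31% of genes. The genes were chosen on these contrasts, so the counts describe the choice. The 5 genes that overlapped with CD8 T cells did so through the untreated CD11c+CD11b- value, except Tcf4, which overlapped through the library labelled untreated CD8 T, at 227 CPM. Without that library the count was 6 of 10, with Tcf4 added, against 9.21% of genes.

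**Figure D2:**
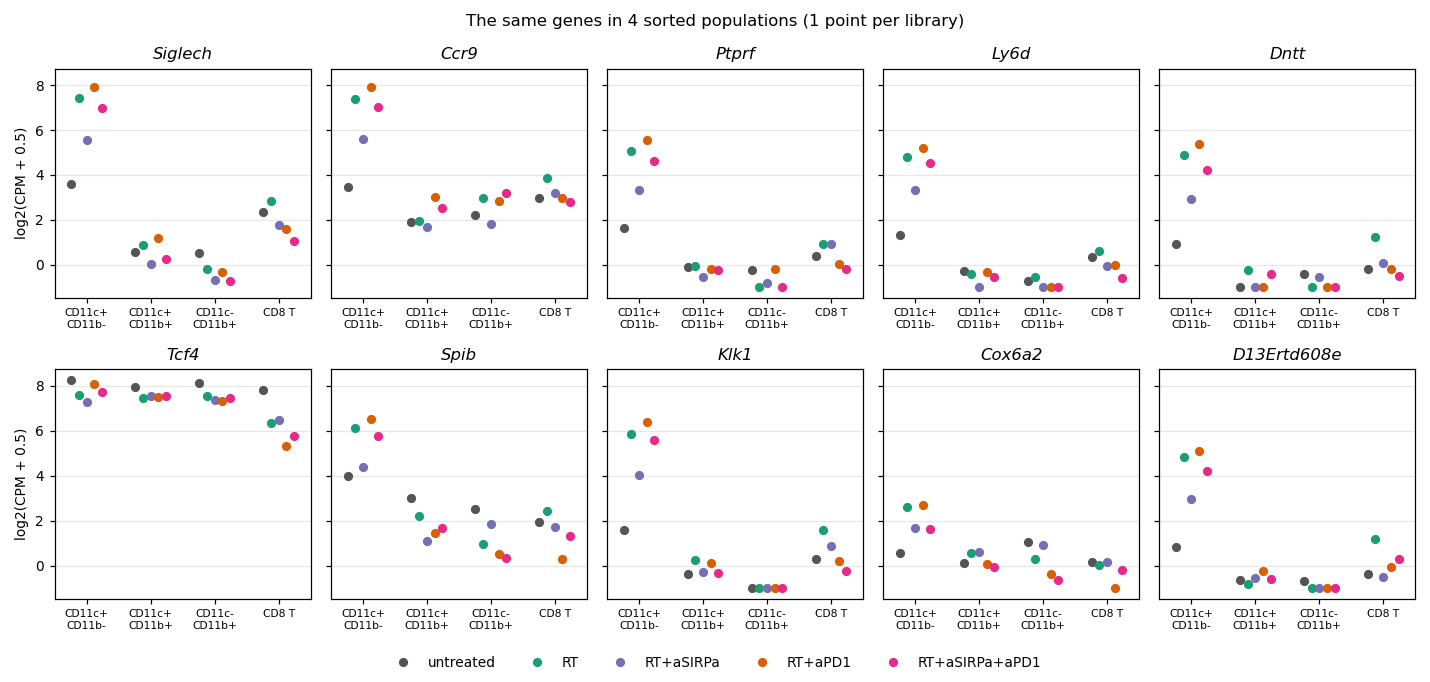
log2(CPM + 0.5) of each gene (vertical axis, shared by all panels) in the 4 sorted populations, 1 point per library, coloured by treatment. For 9 genes the CD11c+CD11b- points spread over several log2 units, and the irradiated ones lie above all points of the other populations. Tcf4 is high in all 3 myeloid fractions.

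Apart from Tcf4, at 40.0 to 227 CPM, the CD8 T libraries carried low levels of the same genes. The highest of these was Ccr9, at 14.0 CPM in the RT library. Taken as a percentage of the CD11c+CD11b- value of the same treatment, the 7 genes Siglech, Dntt, Klk1, Ccr9, Ly6d, Ptprf and D13Ertd608e stood at 3.73 to 8.55% after RT, 2.79 to 18.1% after RT with anti-SIRPa, 0.781 to 2.99% after RT with anti-PD-1 and 0.729 to 5.02% after both antibodies. In the library labelled untreated CD8 T the percentage was 21.1 to 70.2, against CD11c+CD11b- values that were themselves the lowest. These 7 genes were grouped after their values were seen, for their large and similar range.

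Levels of different genes were compared only per kilobase of transcript. On that scale, in CPM per kilobase as mean ± SD over the 5 CD11c+CD11b- libraries, Siglech led with 66.4 ± 52.9, ahead of Tcf4 with 53.4 ± 16.3 and Klk1 with 43.4 ± 34.2. D13Ertd608e, Ccr9, Ly6d and Spib followed at 36.1, 30.7, 26.1 and 18.9, then Dntt at 9.79, Cox6a2 at 5.32 and Ptprf at 3.27. In this order each gene differed from its neighbour by less than the larger of their SDs. These SDs are the spread between treatments, which the genes share, so they do not show how steady the order is within a library. Transcript lengths entered through the estimated counts, and 47.5% of the Siglech counts in this fraction were placed on a transcript annotated for nonsense-mediated decay. That share ran from 22.9% in the untreated library to 59.7% after RT.

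Within the CD11c+CD11b- fraction most of the genes ranked the treatments alike. In 8 of the 10 genes the 5 libraries stood in 1 order, from RT with anti-PD-1 through RT, RT with both antibodies and RT with anti-SIRPa down to untreated, an order shown by 5.46% of the 16186 genes with at least 1 CPM in 2 of these libraries. Cox6a2 differed from it only in its last irradiated places, with 2.70 CPM after RT with anti-SIRPa and 2.64 CPM after both antibodies. Tcf4 was the exception, since its untreated library was the highest, yet its irradiated libraries also had RT with anti-PD-1 at the top and RT with anti-SIRPa at the bottom. Fewer pDCs and less RNA per pDC cannot be told apart in such bulk libraries.

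Against the untreated library, the 7 genes with the wide range stood 12.6 to 22.7 times higher after RT, 3.65 to 6.24 times higher after RT with anti-SIRPa, 17.9 to 33.3 times higher after RT with anti-PD-1 and 9.25 to 18.8 times higher after both antibodies. Klk1 had the highest and Ptprf the lowest of these ratios each time. RT with anti-SIRPa lay at 0.249 to 0.349 of RT alone, and both antibodies lay at 0.449 to 0.624 of RT with anti-PD-1. RT with anti-PD-1 lay at 1.2 to 1.48 of RT alone, and both antibodies at 2.37 to 3.02 of RT with anti-SIRPa. Set against Siglech, the proportions of the other wide-range genes varied by 1.06 times (Ptprf) to 1.33 times (Ly6d) over the 4 irradiated libraries. These genes were grouped for their similar range, so this describes the choice. Outside the group, Spib varied by 1.14 times, Cox6a2 by 2.69 times and Tcf4 by 2.97 times. Ptprf stood at 18.9 to 20.1 CPM per 100 CPM of Siglech, Ly6d at 15.1 to 20.2 and Klk1 at 33.3 to 38.3. Spib stood at 38.7 to 44.0, Tcf4 at 113 to 335 and Cox6a2 at 2.13 to 5.73. In the untreated library the proportions were 22.1 for Ptprf, 17.0 for Ly6d, 21.5 for Klk1, 133 for Spib and 2630 for Tcf4.

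**Figure D3:**
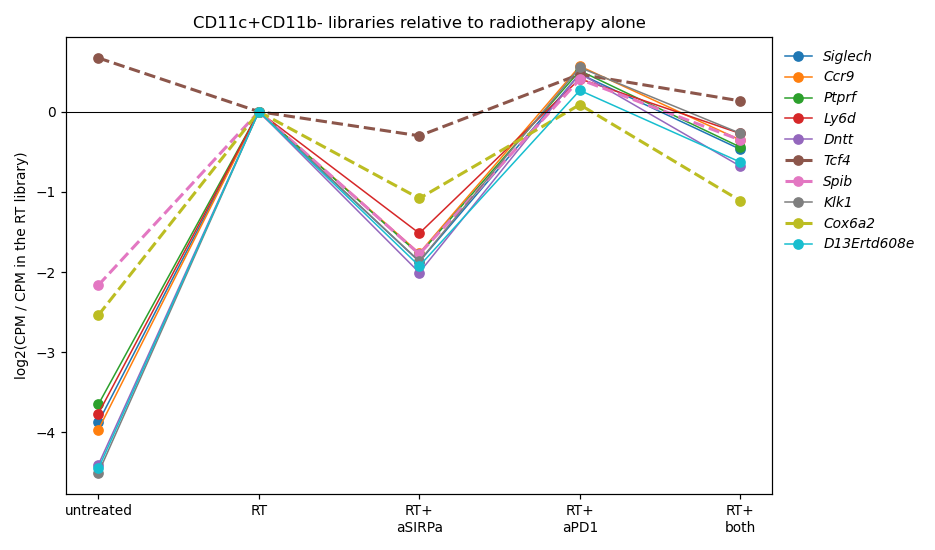
log2 of the CPM of each gene divided by its CPM in the RT library (vertical axis) over the 5 CD11c+CD11b- libraries (horizontal axis), with dashed lines for Tcf4, Spib and Cox6a2. The solid lines run close together, reaching their lowest point in the untreated library, and the dashed line of Tcf4 is the only one above 0 there.

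The first treatment comparison asked how 4 irradiated CD11c+CD11b- libraries differed from the untreated one. Klk1 had the largest log2 difference, 4.35 ± 1.03 (approximate SE), ahead of Dntt with 4.11 ± 1.09 and D13Ertd608e with 4.09 ± 0.98. Ccr9 followed with 3.81 ± 0.95, Siglech with 3.64 ± 0.95, Ly6d with 3.58 ± 0.82 and Ptprf with 3.44 ± 0.94. Cox6a2 and Spib had 2.13 ± 0.69 and 1.94 ± 0.79, and Tcf4 had -0.56 ± 0.26. In 9 of the 10 genes, all 4 irradiated libraries lay above the untreated one, against 31.6% of the 16186 genes with at least 1 CPM in 2 libraries. In Tcf4 all 4 lay below the untreated one, as in 34.3% of those genes. By the quasi-likelihood test of edgeR, adjusted by Benjamini-Hochberg, 0 of the 10 passed, with adjusted p from 0.0924 (Ly6d) to 0.267 (Tcf4), and 0.019% of all 21046 genes passed. At an unadjusted p under 0.05 there were 9 of the 10, against 22.5% of all genes. DESeq2 passed 9, all but Tcf4, at an adjusted p under 0.05, against 13.6% of genes, and edgeR passed 10 once the antibodies were terms of the model, against 12.6% of genes. Without the RT with anti-SIRPa library, which lay nearest to untreated for all members but Tcf4 and Cox6a2, edgeR passed 8, against 14.7% of genes, so the call depends on how the spread is taken, and all settings rest on the same 1 untreated library.

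The second asked about anti-SIRPa among the 4 irradiated libraries, with anti-PD-1 as a term. All 10 genes were lower with anti-SIRPa, both without and with anti-PD-1. The log2 difference was -1.54 ± 0.21 for Dntt, -1.37 ± 0.21 for Siglech, -1.36 ± 0.25 for D13Ertd608e, -1.32 ± 0.21 for Ptprf and -1.31 ± 0.19 for Ccr9. It was -1.30 ± 0.23 for Klk1, -1.23 ± 0.23 for Spib, -1.11 ± 0.24 for Cox6a2, -1.06 ± 0.21 for Ly6d and -0.29 ± 0.08 for Tcf4. By the same edgeR test 0 of the 10 passed (adjusted p from 0.114 to 0.229), where 1 gene in 19130 did (0.00523%). All 10 had an unadjusted p under 0.05, against 12.3% of genes. DESeq2 passed 5 (Dntt, Ccr9, Ptprf, Ly6d and D13Ertd608e), against 2.42% of genes. This test had 1 residual degree of freedom.

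The third asked about anti-PD-1 in the same 4 libraries, with anti-SIRPa as a term, and 4.1% of the 19130 genes passed. Ccr9 rose by 1.00 ± 0.19 on the log2 scale (adjusted p = 0.0483) and Tcf4 by 0.47 ± 0.08 (adjusted p = 0.042, both from edgeR), each higher with anti-PD-1 on both anti-SIRPa backgrounds. They were 2 of 10, beside 1.22% of genes called higher. At an unadjusted p under 0.05 there were 9 of 10, against 24.9% of genes. The other 8 did not pass, with values of 1.07 ± 0.23 for Klk1, 0.94 ± 0.21 for Siglech, 0.92 ± 0.20 for Ptprf, 0.91 ± 0.23 for Spib, 0.89 ± 0.21 for Dntt, 0.82 ± 0.21 for Ly6d, 0.76 ± 0.24 for D13Ertd608e and 0.05 ± 0.24 for Cox6a2. The calls moved with the setting. DESeq2 passed 5 (Dntt, Ccr9, Ptprf, Ly6d and Tcf4), against 6.69% of genes. RLE normalisation left 1 (Tcf4, 3.99% of genes), all 20 libraries in 1 fit left 1 (Siglech, 5.51%), and 0 passed without the filter on low counts or with the anti-SIRPa term dropped (0.00523%, 1 member at an unadjusted p under 0.05). With the filter removed 0 of 29903 genes passed, and 8 of the 10 had an unadjusted p under 0.05.

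**Figure D4:**
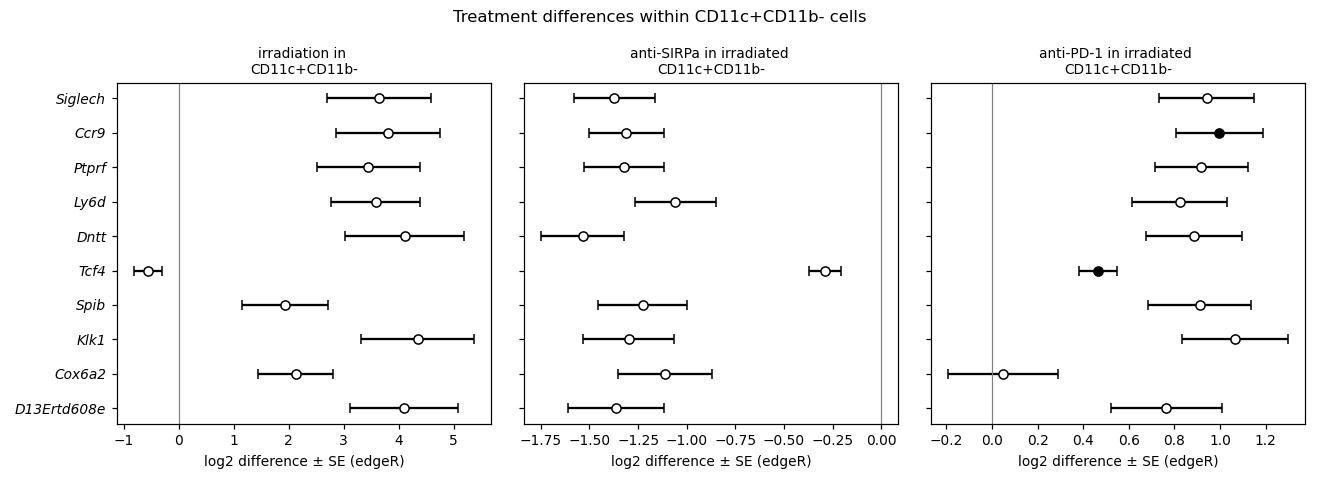
log2 difference ± approximate SE (horizontal axes, which differ in range) of the 10 genes for irradiation, anti-SIRPa and anti-PD-1 in CD11c+CD11b- cells, with filled points for an edgeR adjusted p under 0.05. All points lie below 0 for anti-SIRPa, and the only filled points are Ccr9 and Tcf4 for anti-PD-1.

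Markers of other cells in the same sort moved as well. The 4 cDC1 markers Xcr1, Clec9a, Batf3 and Itgae, detected in every library, summed to 39.2 CPM untreated, 324 after RT, 132 after RT with anti-SIRPa, 394 after RT with anti-PD-1 and 307 after both antibodies. That is the library order of Siglech, shown by 3 of the 4 singly, with Clec9a the exception. The cDC1 sum after RT with anti-SIRPa was 0.406 of RT alone, where the 7 genes had 0.249 to 0.349, and both antibodies gave 0.779 of RT with anti-PD-1, where they had 0.449 to 0.624. The 3 NK markers held a narrow range, 633 to 849 CPM, and were lowest in the untreated library and highest after RT with anti-SIRPa. The 4 macrophage markers summed to 355 CPM untreated and to 143 to 298 CPM in the irradiated libraries. The 4 CD8 T cell markers summed to 16.5 CPM untreated and to 73.2 to 103 CPM in the irradiated libraries, highest after RT with anti-PD-1. That peak came from Cd8a and Cd8b1, at 40.6 and 46.9 CPM. Cd3e and Trac were highest after RT with anti-SIRPa, at 11.9 and 15.7 CPM. The 3 endothelial markers summed to 128 CPM untreated and 210 to 252 CPM in the irradiated libraries. Most of that sum was Pecam1, at 115 CPM untreated. The other 2, Kdr and Cdh5, had the library order of Siglech, from 6.98 and 5.76 CPM untreated to 62.1 and 29.1 CPM after RT with anti-PD-1. The part of these cells and of the fibroblast markers in the treatment differences was not tested.

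**Figure D5:**
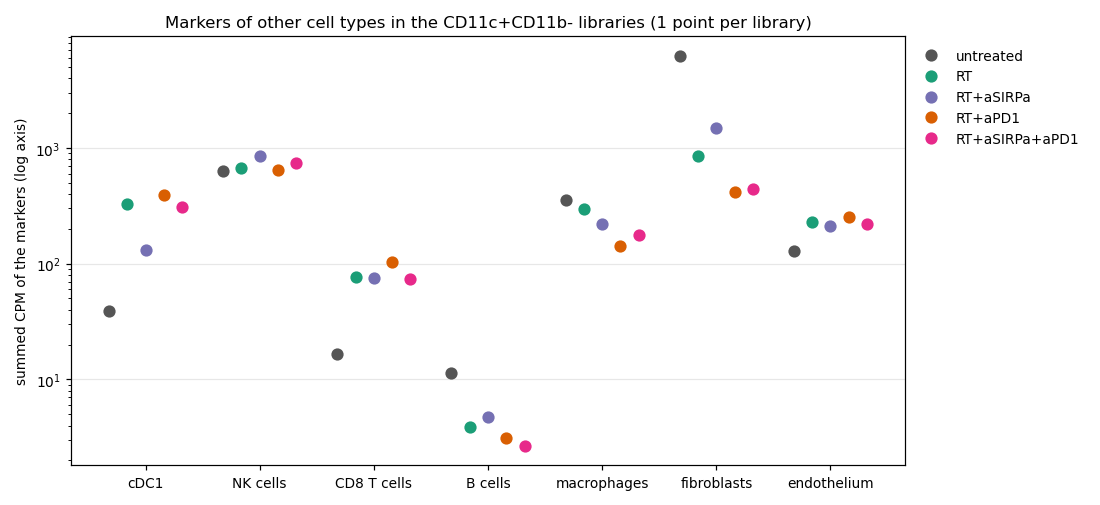
Summed CPM (log axis) of marker genes of 7 other cell types in the 5 CD11c+CD11b- libraries, 1 point per library. The cDC1 sum spans 39.2 to 394 CPM in the library order of Siglech, the NK sum stays between 633 and 849 CPM, and the fibroblast sum is highest in the untreated library.

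A list of 34 other genes known from pDCs was read in the same libraries. This list and those that follow were chosen with earlier results of these data known. Their counts beside all genes are therefore a description. Against CD11c+CD11b+ cells, 18 of 33 tested were higher and 8 lower by edgeR, where 23.1% of all genes were higher and 22.3% lower. Against CD11c-CD11b+ cells 21 were higher and 7 lower, and against CD8 T cells of the irradiated treatments 19 were higher and 4 lower, where 23% and 10.4% of all genes were higher and 24.1% and 8.57% lower. With the untreated treatment added to the comparison with CD8 T cells, 9 were higher. Of its most abundant members, Gzmb, a granule protease shared with NK and T cells, averaged 2072 ± 481 CPM (SD, n = 5). It was higher than in CD11c+CD11b+ cells, by 4.78 ± 0.24 (log2, edgeR adjusted p = 1.42e-05). Ctsl, Ly6a and Plac8 were lower than there, by -1.32, -1.48 and -0.61. Bst2, the pDC surface protein tetherin, was named after its values were seen; it averaged 130 ± 28.0 CPM and was also lower than there, by -0.87 ± 0.11. Ly6c2, Ly6a, Gpm6b and Lag3 were the 4 that were lower than in CD8 T cells. Of the 34, 20 had the library order of Siglech, and 30 had their lowest value in the untreated library, where 31.6% of the 16186 genes did.

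In the treatment tests edgeR made few calls on the list and DESeq2 more. For irradiation 0 of 34 passed (median log2 1.77, against 0.03 over all genes), and for anti-SIRPa 0 of 34 passed (median -0.78, against 0.03), both by edgeR. At an unadjusted p under 0.05 there were 28 for irradiation, all higher, against 22.5% of genes, and 30 for anti-SIRPa, 29 of them lower, against 12.3%. DESeq2 called 25 of 34 for irradiation, all higher, against 13.6% of genes, and 14 of 31 for anti-SIRPa, all lower, against 2.42%. For anti-PD-1, 4 of 34 rose by edgeR, against 1.22% of genes (median 0.52, against 0.01). Lifr, a cytokine receptor, rose by 1.03 ± 0.15 and Blnk, a B cell linker protein, by 0.91 ± 0.17. Cd7, a lymphoid surface protein, rose by 0.65 ± 0.10 and Tex2 by 0.51 ± 0.08. For anti-PD-1 there were 25 at an unadjusted p under 0.05, 23 of them higher, against 24.9% of genes, and DESeq2 called 12 of 33, all higher, against 6.69%.

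The list of pDC transcription factors ran from Irf8, at the highest level, to Bhlhe41, which averaged 4.11 CPM. Irf8, needed for dendritic cell identity and interferon production, averaged 1264 ± 423 CPM and was 1.88 ± 0.12 log2 units above CD11c+CD11b+ cells (edgeR adjusted p = 3.86e-05). Irf7, the inducer of interferon alpha genes, averaged 311 ± 106 CPM and was lower than there, by -1.62 ± 0.09. Runx2, which guides pDC egress from bone marrow, averaged 163 ± 56.7 CPM, and Id2, an inhibitor of E proteins, 463 ± 76.2 CPM. Of 19 factors, 10 were higher and 5 lower than in CD11c+CD11b+ cells, where 23.1% of all genes were higher and 22.3% lower. Beside Irf7, the lower ones were Zeb2 (-2.63 ± 0.17), Spi1, the myeloid ETS factor PU.1 (-2.36 ± 0.25), Bhlhe41 (-1.72 ± 0.18) and Nfil3 (-0.50 ± 0.09). With anti-PD-1, 3 of 19 rose by edgeR, against 1.22% of genes. They were Bcl11a, by 1.07 ± 0.17, Cbfa2t3, by 0.67 ± 0.11, and Runx2, by 0.51 ± 0.09. For irradiation and for anti-SIRPa 0 of 19 passed by edgeR. At an unadjusted p under 0.05 there were 16 factors for irradiation, 11 of them higher, against 22.5% of genes, and 9 for anti-SIRPa, 8 of them lower, against 12.3%. DESeq2 called 12 of 19 for irradiation, 10 of them higher, against 13.6% of genes, and 4 of 18 for anti-SIRPa (Bcl11a, Cbfa2t3, Spi1 and Mycl), all lower, against 2.42%.

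Endosomal sensing genes were measured with interferon genes. Of 14 tested against CD11c+CD11b+ cells, 9 were lower by edgeR, against 22.3% of all genes, and the others did not pass. Against CD8 T cells of the irradiated treatments 6 of 12 were higher and the others did not pass, where 10.4% of all genes were higher. Tlr7 and Tlr9, the endosomal receptors of RNA and DNA, named after their values were seen, were lower by -1.93 ± 0.24 and -2.14 ± 0.23. In the CD11c+CD11b- libraries Tlr9 had the library order of Siglech, from 19.7 CPM untreated to 127 CPM after RT with anti-PD-1. The lower genes also included Unc93b1, the chaperone of endosomal Toll-like receptors, by -1.80 ± 0.18, and Pik3ap1 by -1.01 ± 0.08. Irak1, Traf6 and Ifnar1 did not pass there, at 0.08 ± 0.05, -0.14 ± 0.09 and -0.21 ± 0.09. Slc15a4, a lysosomal transporter needed for endosomal sensing, rose with anti-PD-1 by 0.59 ± 0.10. It was the only 1 of 13 that passed by edgeR, against 4.1% of all genes. The 20 interferon genes listed reached at most 1.17 CPM in the CD11c+CD11b- libraries. Of these 8 had 0 counts in the 5 libraries, and Ifna11, Ifna12 and Ifnl3 had 0 counts in all 20. Interferon transcripts were thus few or absent in this fraction at this depth. Ifnb1, which had the most counts over the 20 libraries, had 478 there and 2 to 11 in each CD11c+CD11b- library. Most of its counts therefore lay in the other populations.

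Early lymphoid and B cell genes set Dntt in context. Flt3, the cytokine receptor of dendritic cell progenitors, averaged 146 ± 94.8 CPM, Ighm, the immunoglobulin mu chain, 159 ± 43.0 CPM, and Kit, the stem cell factor receptor, 159 ± 67.0 CPM. Of 24 genes, 13 could be tested against CD11c+CD11b+ cells, and 4 were higher and 3 lower, near the 23.1% and 22.3% of all genes. The higher ones were Igkc (2.93 ± 0.61), Ighm (2.50 ± 0.36), Kit (2.41 ± 0.32) and Flt3 (2.24 ± 0.55), and the lower ones were Cd22 (-2.12 ± 0.17), Cd79b (-1.71 ± 0.24) and the interleukin receptor gene Il7r (-0.87 ± 0.27). With anti-PD-1, Flt3 rose by 0.86 ± 0.16 and Igkc by 0.99 ± 0.19, while Cd34, which endothelium also carries, fell by 1.10 on the log2 scale. Rag1 and Rag2, the recombinase genes of the same precursors, were named after their values were seen and averaged 0.075 and 0.038 CPM.

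Relatives of the 10 genes had the library order of Siglech in 5 of 26 cases with at least 1 CPM in 2 libraries, namely Siglecg, Ccr7, Ly6c2 and the kallikreins Klk1b27 and Klk1b5. Klk1b27 stood at 0.328 CPM untreated, 5.71 CPM after RT, 2.22 CPM after RT with anti-SIRPa, 9.20 CPM after RT with anti-PD-1 and 4.91 CPM after both antibodies. Reads can be split between it and Klk1, so its level is uncertain too. Of 31 tested with anti-PD-1, 1 was called higher and 1 lower by edgeR, where 4.1% of all genes were called. Ptprs, a phosphatase related to Ptprf that pDCs carry, rose by 0.49 ± 0.09 and Ptprk fell by 1.00 on the log2 scale. Ccr7, a chemokine receptor of migrating dendritic cells, averaged 197 ± 118 CPM. Against CD11c+CD11b+ cells 3 of 29 relatives were higher and 15 lower, where 23.1% and 22.3% of all genes were. The higher ones were Hcst, a signalling adaptor (1.24 ± 0.12), the polymerase gene Polm, related to Dntt (0.56 ± 0.09), and Tcf12, an E protein gene (0.45 ± 0.06). Among dendritic cell transition and progenitor genes, Axl, a TAM receptor, and Cx3cr1, the fractalkine receptor, fell with anti-PD-1 by 0.62 and 0.92 on the log2 scale. They were the only 2 of 17 that passed by edgeR, against 4.1% of all genes.

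The genes whose levels most resembled the 10 over all 20 libraries were ranked by Pearson's r between log2(CPM + 0.5) and the mean of the 10 genes' standardised values, among genes with at least 10 CPM in 2 libraries. The 10 named are those with gene names, and 2 unnamed gene models that ranked among them were left out. The first was Gcsam, a germinal centre signalling protein, with r = 0.975. Next came Cacna1e, a voltage-gated calcium channel subunit, with 0.974, and Havcr1, a phosphatidylserine receptor, with 0.970. Snx22, Adpgk, Scin, Chdh, Smim5 and Zc3h12c followed, and Clec9a, a cDC1 receptor, closed the 10 with 0.932. Cacna1e stood at 1.67 CPM untreated, 21.9 CPM after RT, 7.94 CPM after RT with anti-SIRPa, 52.2 CPM after RT with anti-PD-1 and 29.1 CPM after both antibodies. The libraries share treatments and sorts, and the same r was 0.359 for Tcf4 and 0.896 to 0.985 for the other 9 members, which are part of the mean.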

How the data were processed

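The deposited values were whole-number estimated counts per transcript in 20 libraries. Per the submitters' processing notes, the authors used FastQC 0.11.8, HISAT2, StringTie, edgeR 3.34.0 and GRCm38 (for HISAT2 and StringTie no version is listed). Of 142699 transcripts, 141469 matched GENCODE M21 and were added up into 55260 genes. The unmatched rows took no more than 0.399% of any library.

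Genes were filtered with filterByExpr (minimum count 10, minimum total 15), normalised by TMM and tested with the quasi-likelihood test of edgeR 4.0.16 in R 4.3.3, with p-values adjusted by Benjamini-Hochberg over all genes and a limit of 0.05. SEs are the log2 difference over the square root of F. DESeq2 1.42.0 was the alternative tool. Tables and figures came from Python (version 3.11.15), pandas (2.3.3), numpy (2.4.6) and matplotlib (3.10.9). Groups followed the titles. Population tests had the treatment as a block, which the titles mark by a shared letter. The treatment tests had 3 residual degrees of freedom for irradiation and 1 for an antibody. With 1 library per group, p-values measure spread between treatments, not between repeats of a treatment.

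The members and the gene lists were chosen with earlier results of these data known. Named genes were the 10 members, the 5 with the highest mean CPM in the CD11c+CD11b- libraries in each list, those counted in groups of 5 or fewer, and the 10 most like the members by r; some genes these rules name are not reported here. On simulated data with 100 genes changed 2-fold and 100 changed 4-fold, 27 and 100 were recovered for irradiation over 21046 genes, and 36 and 100 for anti-SIRPa over 19130 genes. Recovery at the spread between the measured libraries was not tested. In the measured libraries the 7 genes with the wide range did not pass for irradiation by edgeR. Their log2 differences ran from 3.44 (Ptprf) to 4.35 (Klk1). Alternatives were RLE, no filter, DESeq2, other model terms, all 20 libraries in 1 fit, each treatment left out, other scalings of CPM, a pseudocount of 2 in place of 0.5 and a limit of 50 CPM in place of 10. The transcript table gives no strand.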

Additional observations from a re-analysis of the deposited data

Results flagged for a closer look

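In each population, the 5 treatment libraries of each gene were searched for a value far from the other 4, with a gap to its nearest neighbour above 0.71 of the whole range on the log2(CPM + 0.5) scale. Over 40 gene and population pairs 3 were found, and chance gives about 1 in 20. Tcf4 in the untreated CD11c+CD11b+ library, at 246 CPM, stood above the others, whose highest was 189 CPM, with a gap of 0.816 of the range. Tcf4 in the untreated CD11c-CD11b+ library, at 280 CPM, stood above the others, whose highest was 186 CPM, with a gap of 0.722 of the range. The untreated library of both fractions also held the most fibroblast marker CPM, and the part of this in the Tcf4 values was not tested. D13Ertd608e in the untreated CD11c-CD11b+ library, at 0.132 CPM on 4 counts, was the only value above 0 of its 5 libraries. On the CPM scale the same 3 and another 2 were found, Tcf4 in the library labelled untreated CD8 T, at 227 CPM, and Dntt in the RT CD8 T library, at 1.89 CPM.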

How the results depend on the processing

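No member changed sign in any alternative of the 3 treatment tests. Each member's mean CPM in CD11c+CD11b- cells moved by less than its SD with RLE or total-count scaling. That SD is the wide spread between treatments, so staying within it is a weak check. The mean of Siglech was 119 CPM, 117 CPM with RLE and 123 CPM with total-count scaling. The calls were less steady. For irradiation, the 4 genes called became 0 without the filter, 2694 with DESeq2, 2633 with all 20 libraries in 1 fit and 2661 with antibody terms, and leaving out 1 irradiated treatment gave 0 to 3059. Members called for irradiation, 0 at first, were 9, 8 and 10 in the last 3 of those fits and 0 to 8 on leaving out 1 treatment, 8 without RT with anti-SIRPa. For anti-SIRPa, the 1 gene called became 0 without the filter, with all 20 libraries and with the anti-PD-1 term dropped, and 274 with DESeq2, which called 5 members where 0 were called. For anti-PD-1, 785 genes became 0 without the filter and 1 with the anti-SIRPa term dropped; the 2 members called became 1 with RLE, 0 without the filter, 5 with DESeq2, 1 with all 20 libraries and 0 with the term dropped. Leaving out a library from the antibody tests would leave no residual degree of freedom and was not done. Against CD8 T cells, 3587 genes became 798 with the untreated treatment added and ran from 1661 (without the treatment with both antibodies) to 4240 on leaving out 1 treatment, with 1919 without RT. There the 19 other pDC genes called higher became 9 with untreated added. Without the treatment as a block (no replicate block) 6705, 6670 and 3880 genes were called in the 3 population comparisons, in the order CD11c+CD11b+, CD11c-CD11b+ and CD8 T. Of the 10 genes most like the members, 4 were shared with a limit of 50 CPM and 7 with a pseudocount of 2. Depth limits Cox6a2, Dntt and D13Ertd608e most, at 30 to 42 counts in the untreated CD11c+CD11b- library, and the interferon genes in that fraction.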
